A study of Mus musculus with 3 samples.

Results

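A set of 38 genes of fatty acid uptake, lipid storage, the carnitine shuttle, mitochondrial beta oxidation and their regulation was followed, of 30415 gene symbols in the matrices. They were listed by name for their known functions and were all found by symbol. By role they are 7 uptake genes, 6 of lipid storage, 6 of activation and the carnitine shuttle, 15 of beta oxidation and 4 of regulation.

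The study compared hearts of immunodeficient NOD/SCID mice given an isotype control antibody, pembrolizumab (an antibody against PD-1) or atezolizumab (an antibody against PD-L1). The mice were injected on day 0 and again on day 7, and on day 14 hearts were digested and their cells captured with 10x Genomics 3′ v3.1 chemistry. Each of the 3 groups is 1 library of 3 pooled hearts, so hearts cannot be separated and the difference between any 2 libraries has no replicate check. The mice's age is not given in the labels. NOD/SCID mice lack functional T and B cells, and T cells are the main cells through which these antibodies act. Whether other cells of these hearts carry the antibodies' targets was not examined here. The library titles and the treatment tags disagree: the library titled PD1/PEM is tagged with atezolizumab and the library titled PDL1/ATZ with pembrolizumab. The libraries are called here by their titles, and no difference is assigned to an antibody.

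Heart muscle obtains most of its energy from long-chain fatty acids. Lipoprotein lipase releases them from circulating triglyceride at the capillary wall, and they cross endothelium and muscle membrane with the help of CD36 and the fatty acid binding proteins. Inside the myocyte they are stored in lipid droplets, or joined to coenzyme A, carried into mitochondria as carnitine esters and shortened by the 4 repeated steps of beta oxidation. The nuclear receptor PPAR alpha, with its coactivator PGC-1 alpha, is a main regulator of these genes.

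The isotype, PD1/PEM and PDL1/ATZ libraries held 9510, 6388 and 11599 cells and 16677883, 14766346 and 15144668 UMIs (unique molecular identifiers, each a counted RNA molecule). The PDL1/ATZ library stood apart from the others: its median share of mitochondrially encoded UMIs per cell was 8.04%, against 27.1% in isotype and 26.9% in PD1/PEM. Malat1, a nuclear RNA, was at 33378 per 1000000 UMIs (counts per 1000000, CPM) in PDL1/ATZ, 19240 in isotype and 18791 in PD1/PEM. The nuclear RNAs Kcnq1ot1 and Meg3 were also highest in PDL1/ATZ, at 358 and 197 CPM. Neat1, another, was lowest there, at 687 CPM against 914 in isotype and 937 in PD1/PEM. PDL1/ATZ also read 2893 symbols that were at 0 in the other libraries, while 1942 symbols read in those were at 0 in it, and all of these were left out of its comparison. Cell barcodes were shared between isotype and PD1/PEM in 23 cases, and PDL1/ATZ had none in common with either. The antibody and the library cannot be told apart in any comparison below. The labelled tissue was checked with 8 cardiomyocyte markers, all read in every library, which summed to 31577, 23163 and 11991 CPM. The 12 endothelial markers summed to 3302, 3810 and 6090. In summed libraries, fewer cells of a type and less RNA per cell cannot be told apart.

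Levels are CPM over all deposited cells of a library, and ranges in brackets are 95% intervals of a ratio. They cover counting error only. A gene was counted as higher or lower when it had at least 50 UMIs over the 2 libraries, a ratio of at least 1.5-fold and an interval that left out no difference. The 38 genes together took 0.712% of UMIs in isotype, 0.607% in PD1/PEM and 0.784% in PDL1/ATZ, and none was at 0 in any library.

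Sequence before the start of 3 beta oxidation genes is shown here because their products belong to 1 pathway and their levels are described together below. Hadha and Hadhb, which encode the alpha and beta subunits of the mitochondrial trifunctional protein, lie head to head on chromosome 5 of GRCm38 (Hadha at chr5:30118304-30155162 on the minus strand, Hadhb at chr5:30155248-30184593 on the plus strand). The stretch between their annotated starts is 85 bases long and is printed on the plus strand (chr5:30155163-30155247). Acadm, medium-chain acyl-CoA dehydrogenase, and Acadvl, very long-chain acyl-CoA dehydrogenase, are printed on the minus strand, their own (chr3:153944633-153944893 and chr11:70015412-70015678). The sequences are from RefSeq on GRCm38.p6, 5′ to 3′, up to the gene's start as GENCODE M21 annotates it. Capitals mark AGGTCA, a nuclear receptor half-site that PPAR alpha with RXR and the oestrogen-related receptors recognise, on either strand.
Hadhb: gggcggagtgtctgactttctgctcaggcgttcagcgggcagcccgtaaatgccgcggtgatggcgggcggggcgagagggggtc
Acadm: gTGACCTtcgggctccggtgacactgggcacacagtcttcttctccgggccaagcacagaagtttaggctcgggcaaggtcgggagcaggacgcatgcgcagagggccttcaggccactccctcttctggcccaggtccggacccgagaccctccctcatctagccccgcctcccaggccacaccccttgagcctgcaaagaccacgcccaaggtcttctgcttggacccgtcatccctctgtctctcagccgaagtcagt
Acadvl: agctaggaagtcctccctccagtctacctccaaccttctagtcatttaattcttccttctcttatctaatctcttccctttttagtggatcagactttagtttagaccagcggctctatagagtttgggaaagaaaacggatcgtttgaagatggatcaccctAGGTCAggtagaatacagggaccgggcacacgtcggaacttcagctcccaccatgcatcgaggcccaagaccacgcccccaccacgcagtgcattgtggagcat
AGGTCA was at position 2 of the Acadm stretch, as its reverse complement, and at position 164 of the Acadvl stretch, counted from the 5′ end. The stretch between Hadha and Hadhb held no match. Windows of 300 bases, from 250 before to 50 after the start, were found for 28 of the 38 genes, and 9 of them (32.1%) held AGGTCA on either strand: Acacb, Acadm, Acadvl, Cd36, Cpt1a, Echs1, Plin2, Plin5 and Ucp3. Of all 27025 genes with such a window, 4900 (18.1%) held it. DR1, the direct repeat of AGGTCA with 1 base between the copies, was searched on both strands and was in none of the 28 and in 13 of the 27025 (0.0481%). A match is only a run of letters, and binding was not measured.

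The first comparison asked how PD1/PEM differed from isotype. Most beta oxidation genes were lower in PD1/PEM by small amounts, while the binding proteins Fabp4 and Fabp5 and the lipid droplet coat gene Plin2 were higher. All 15 beta oxidation genes had a log2 ratio below 0, and for 12 of them the interval left out no difference. In cells with at most 25% mitochondrial UMIs, 2 of the others lay above 0, Acads at 0.15 and Hadh at 0.26. In cells with few markers Acads was at 0.40, on 22 UMIs in isotype and 7 in PD1/PEM, under the minimum of 50. In cells with at least 3 endothelial markers it was at -0.90. Over all cells the 15 ratios ran from -0.72 to -0.12 with a median of -0.45, beside a median of 0.01 over all 14748 genes tested. Of the 37 genes of the set that could be tested, 31 had a log2 ratio below 0 and the median was -0.40. At 1.5-fold, 3 of the 37 were counted as lower (8.11%), beside 3.65% of all genes, and none as higher, beside 5.0%. The 3 were Fabp3, Plin5 and Etfb. A smaller step, a log2 ratio of at least 0.32 either way in place of the 0.58 of 1.5-fold, gave 21 lower genes (56.8%), beside 10.4% of all genes, and 3 higher genes (8.11%), beside 12.3%. By role, the lower genes at this step were 12 of 15 in beta oxidation, 4 of 5 tested in the carnitine shuttle, 3 of 6 in storage, 2 of 7 in uptake and 0 of 4 in regulation.

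The second comparison asked how PDL1/ATZ differed from isotype. Here the set divided: Fabp4, Fabp5, Gpihbp1, Lipe, Plin2 and Cpt1b were counted as higher, the last on only 14 UMIs in isotype. Counted as lower were 13 genes, among them Pdk4, Slc27a1, Hadha and Acadl. The 6 higher genes of 38 (15.8%) stand beside 48.5% of all 15496 genes tested, and the 13 lower genes (34.2%) beside 5.18%. The median log2 ratio of the set was -0.44, and that of all genes 0.58, so the CPM were higher for most genes in this library. With mitochondrially encoded UMIs left out of the totals, 28.8% of all genes were higher and 10.4% lower, and the set had 4 higher and 25 lower. With median-of-ratios scaling these were 16.5% and 17.8% of all genes, and 2 and 26 of the set. With trimmed mean scaling they were 15.4% and 18.6%, and again 2 and 26. Fabp4 and Cpt1b were the 2 still higher with median-of-ratios scaling, where the log2 ratio was 0.37 for Fabp5, 0.13 for Gpihbp1, 0.28 for Lipe and 0.48 for Plin2. Cd36, Dgat1, Hadh and Mlycd lay above 0 in the main scaling and below it without mitochondrially encoded UMIs, at -0.16, -0.08, -0.27 and -0.23. Of the 38 genes, 32 lay below the median of all genes, in the main scaling and in these 3. The role medians were 0.15 for uptake, -0.07 for storage, -0.57 for the carnitine shuttle, -0.49 for beta oxidation and -0.52 for regulation. The 2 comparisons share the isotype library, so their values are given side by side and not as separate evidence.

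**Figure D1:**
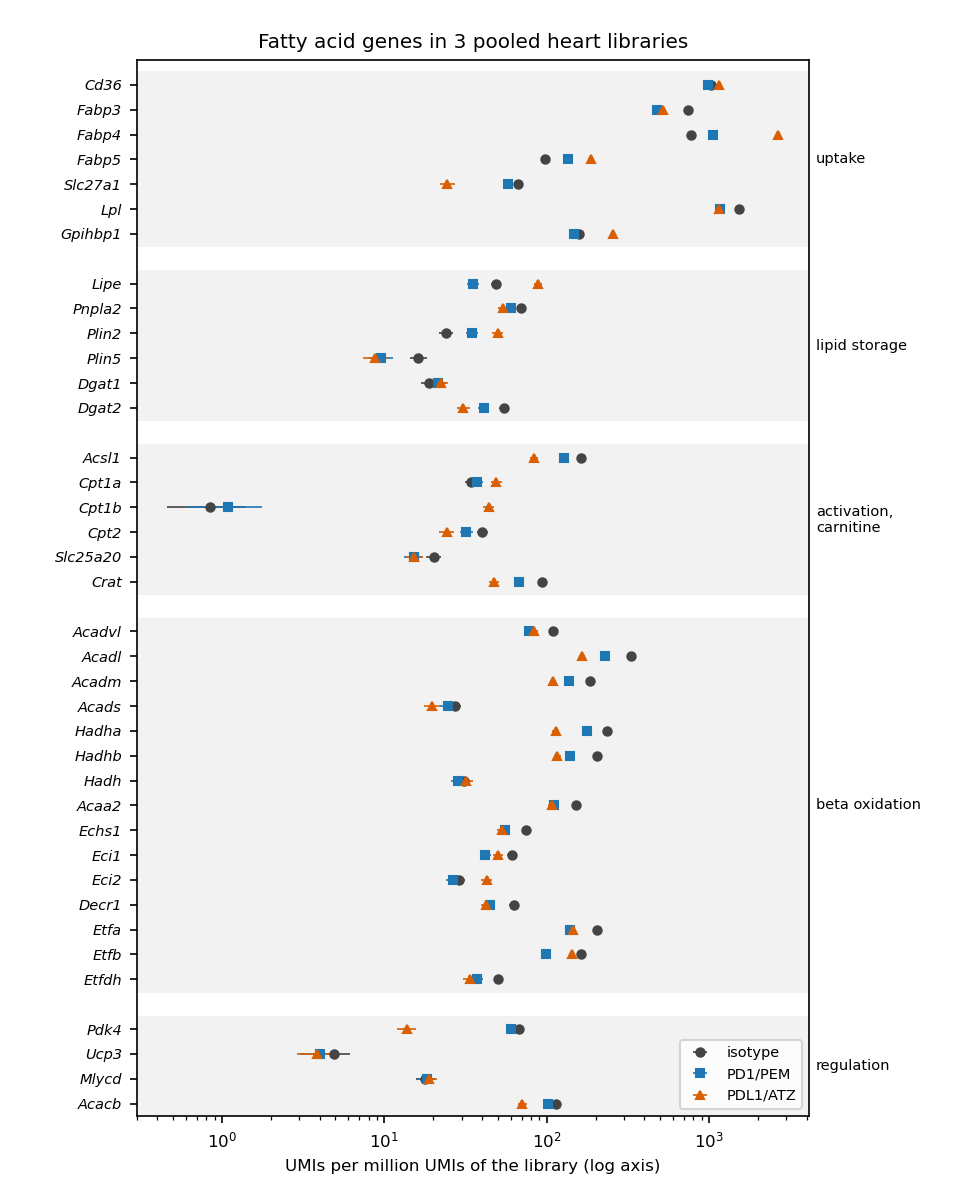
Level of each of the 38 genes in the 3 libraries, in CPM on a log axis, with genes grouped by role. Points are single libraries and bars are 95% Poisson intervals for counting error. Cpt1b is near 1 in isotype and PD1/PEM and at 43.9 in PDL1/ATZ, and Fabp4 is highest in PDL1/ATZ at 2661.

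Among the uptake genes, 3 binding proteins are described first. Fabp4, a binding protein known from capillary endothelium and fat, was at 775 CPM in isotype, 1056 in PD1/PEM and 2661 in PDL1/ATZ. It was thus 1.36-fold higher in PD1/PEM (1.33 to 1.40) and 3.43-fold higher in PDL1/ATZ (3.37 to 3.50), and the 3 intervals of its level do not overlap. Fabp5, its close relative, was at 97.1, 136 and 187 CPM in the same order. It was 1.40-fold higher in PD1/PEM (1.31 to 1.5) and 1.93-fold higher in PDL1/ATZ (1.81 to 2.05). Fabp3, the binding protein of heart muscle, went the other way, at 741, 481 and 519 CPM. It was 1.54-fold lower in PD1/PEM (1.5 to 1.59) and 1.43-fold lower in PDL1/ATZ (1.39 to 1.47).

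Gpihbp1, the protein that holds lipoprotein lipase on the capillary wall, was at 157 CPM in isotype, 147 in PD1/PEM and 257 in PDL1/ATZ, which is 1.63-fold above isotype (1.55 to 1.72). PD1/PEM differed from isotype by only 1.07-fold. Lpl, the lipase itself, was at 1538, 1162 and 1158 CPM, or 1.32-fold and 1.33-fold below isotype. The lipase and its anchor thus lay on opposite sides of isotype in PDL1/ATZ. Cd36, the fatty acid translocase, was at 1032, 993 and 1148 CPM. Its log2 ratios were -0.06 in PD1/PEM and 0.15 in PDL1/ATZ, and the latter was -0.43 with median-of-ratios scaling. Slc27a1, a fatty acid transport protein of muscle, was at 66.7, 57.8 and 24.5 CPM. It was 2.72-fold lower in PDL1/ATZ (2.42 to 3.07) and 1.15-fold lower in PD1/PEM.

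Among the storage genes, Plin2, which coats lipid droplets in most cells, was at 24.0 CPM in isotype, 34.7 in PD1/PEM and 49.9 in PDL1/ATZ. Its ratio was 1.45-fold in PD1/PEM (1.27 to 1.65) and 2.08-fold in PDL1/ATZ (1.84 to 2.35), both above isotype. Plin5, the coat protein of droplets in oxidative muscle, was at 16.2, 9.55 and 8.78 CPM. It was 1.69-fold lower in PD1/PEM (1.38 to 2.09) and 1.84-fold lower in PDL1/ATZ (1.49 to 2.29), the only gene of the set counted as lower in both with the main scaling. With median-of-ratios scaling Fabp3 and Etfb also passed in PDL1/ATZ, at log2 ratios of -1.09 and -0.76. The 2 droplet coat genes thus lay on opposite sides of isotype in each library. Lipe, hormone-sensitive lipase, was at 48.7, 35.3 and 88.5 CPM, below isotype in PD1/PEM by 1.38-fold and above it in PDL1/ATZ by 1.82-fold. Pnpla2, the lipase that starts triglyceride breakdown, was at 69.9, 60.7 and 54.0 CPM, with neither ratio reaching 1.5-fold. Dgat1 and Dgat2 encode the enzymes of the last step of triglyceride synthesis. Dgat2 was at 54.7, 41.0 and 30.7 CPM, 1.78-fold lower in PDL1/ATZ, whereas Dgat1 was at 18.9, 21.3 and 22.3 CPM. The markers of fat cells were low: 9 adipocyte markers summed to 13, 9.48 and 15.3 CPM, with Cidea the highest of them at 8.81, 5.62 and 6.47, and Adipoq had 4, 8 and 9 UMIs.

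Of the 6 genes of activation and the carnitine shuttle, 3 were counted as lower in PDL1/ATZ. Both carnitine palmitoyltransferase 1 genes lay above isotype there in the main scaling, Cpt1b on few isotype UMIs. Acsl1, the acyl-CoA synthetase of heart, was at 163 CPM in isotype, 128 in PD1/PEM and 83.3 in PDL1/ATZ, 1.95-fold below isotype in the last (1.83 to 2.09). Crat, carnitine acetyltransferase, was at 93.4, 67.1 and 47.5 CPM, 1.96-fold lower in PDL1/ATZ. Cpt2, which removes carnitine inside the mitochondrion, was at 40.2, 32.0 and 24.2 CPM, 1.66-fold lower in PDL1/ATZ. All 3 were ordered isotype, PD1/PEM, PDL1/ATZ from high to low. Slc25a20, the carnitine carrier of the inner membrane, was at 20.1, 15.2 and 15.3 CPM. Cpt1a, the form of the gate enzyme known from liver and many other cells, was at 34.2, 37.1 and 49.1 CPM. It was 1.43-fold higher in PDL1/ATZ (1.28 to 1.60), with a log2 value of 0.52 that was -0.06 with median-of-ratios scaling.

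Cpt1b, the form of muscle, was hardly read in the isotype and PD1/PEM libraries. It had 14 UMIs in isotype, 16 in PD1/PEM and 665 in PDL1/ATZ, or 0.839, 1.08 and 43.9 CPM. The ratio of PDL1/ATZ to isotype was 52.3-fold (31.0 to 96.2), and with 30 UMIs PD1/PEM could not be compared. In GENCODE M21 the gene lies at chr15:89416405-89425863 on the minus strand of GRCm38. It is spanned whole, on the same strand, by the protein-coding gene model Gm44502 (chr15:89416405-89429696), which is not in the symbol list. Chkb, the neighbour known to share readthrough transcripts with Cpt1b, was at 11.3, 10.8 and 19.3 CPM. Reads in a stretch shared by 2 genes of 1 strand are often left uncounted, and the annotation behind each matrix is not given in the sources used here. Whether this set the low counts was not tested, so the value of Cpt1b in isotype and PD1/PEM is uncertain. Etfb is also overlapped on its strand by a protein-coding model, Gm45233, with 5, 8 and 0 UMIs.

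**Figure D2:**
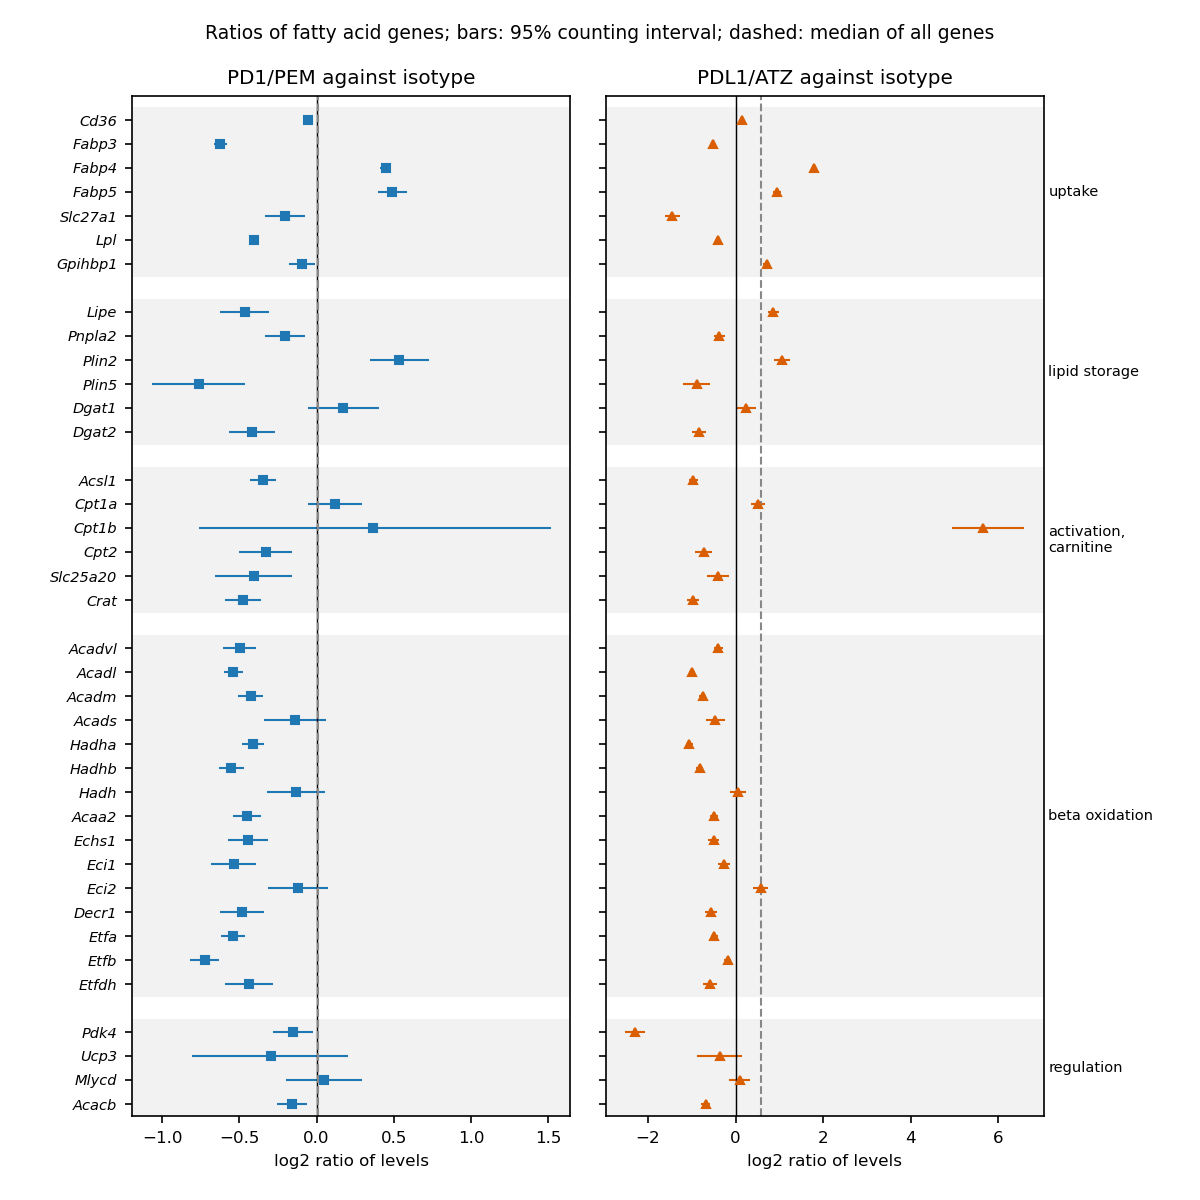
Log2 ratio of each of the 38 genes to isotype, for PD1/PEM and PDL1/ATZ, with 95% intervals for counting error, grouped by role. The solid line marks no difference and the dashed line the median of all genes, at 0.01 and 0.58, and the axes of the panels differ. All 15 beta oxidation genes lie below 0 in PD1/PEM.

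Beta oxidation genes made up the largest role. Acadl, long-chain acyl-CoA dehydrogenase, was at 330 CPM in isotype, 227 in PD1/PEM and 165 in PDL1/ATZ. It was 1.45-fold lower in PD1/PEM (1.39 to 1.52) and 2.0-fold lower in PDL1/ATZ (1.91 to 2.10). A processed pseudogene, Gm15793, lies within Acadl on its strand. Acadm was at 184, 137 and 109 CPM, 1.34-fold and 1.68-fold lower. Acadvl was at 110, 77.8 and 83.6 CPM, 1.41-fold and 1.31-fold lower. Acads, the short-chain enzyme, was at 27.2, 24.7 and 19.7 CPM, and its PD1/PEM ratio of 1.10-fold had an interval that included no difference. The 4 dehydrogenases, which take the first step for chains of decreasing length, were thus all below isotype in both libraries, with the interval of Acads in PD1/PEM as the exception.

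Hadha was at 236 CPM in isotype, 177 in PD1/PEM and 114 in PDL1/ATZ, 1.33-fold (1.27 to 1.40) and 2.08-fold lower (1.96 to 2.20). Hadhb was at 206, 140 and 116 CPM, 1.47-fold (1.39 to 1.55) and 1.77-fold lower (1.67 to 1.87). Both subunits therefore followed the same order of libraries. Acaa2, the thiolase of the last step, was at 151, 111 and 107 CPM. Echs1, the short-chain hydratase, was at 75.1, 55.3 and 53.0 CPM. Hadh, the short-chain hydroxyacyl-CoA dehydrogenase, was at 30.9, 28.2 and 32.0 CPM, and both of its intervals included no difference. Genes of unsaturated chains varied among themselves: Eci1, an enoyl-CoA isomerase, was at 60.9, 42.0 and 50.3 CPM, and Decr1, the dienoyl-CoA reductase, at 62.7, 44.8 and 42.5. Eci2, a second isomerase, was at 28.8, 26.5 and 42.8 CPM, 1.48-fold above isotype in PDL1/ATZ (1.32 to 1.67). That log2 value of 0.57 was -0.01 with median-of-ratios scaling. The electron transfer flavoprotein passes electrons from these dehydrogenases to the respiratory chain. Its subunit Etfa was at 203, 139 and 145 CPM, and Etfb at 164, 99.2 and 144. Etfb was 1.65-fold lower in PD1/PEM (1.55 to 1.76) but 1.14-fold lower in PDL1/ATZ. Etfdh, which accepts those electrons, was at 50.5, 37.3 and 33.5 CPM, 1.51-fold lower in PDL1/ATZ (1.35 to 1.68).

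Of the regulators, Pdk4, the kinase that shuts off pyruvate dehydrogenase when fat is burned, was at 67.4 CPM in isotype, 60.7 in PD1/PEM and 13.7 in PDL1/ATZ. It was 4.91-fold lower in PDL1/ATZ (4.23 to 5.72), the lowest ratio of the set in that library, and 1.11-fold lower in PD1/PEM (1.02 to 1.21). That small PD1/PEM difference turned with the cells taken. Its log2 ratio was -0.15 over all cells and 0.25 in cells with at most 25% mitochondrial UMIs. In cells with few markers it was 0.30, on 75 UMIs in isotype and 23 in PD1/PEM. It was -0.22 in cells with over 20% mitochondrial UMIs and -0.36 in cells with at least 3 endothelial markers. Within both kinds of marker-sorted cells the interval included no difference. Acacb, which makes the malonyl-CoA that inhibits carnitine palmitoyltransferase 1, was at 114, 102 and 71.0 CPM, 1.61-fold lower in PDL1/ATZ. Mlycd, which removes malonyl-CoA, was at 17.7, 18.3 and 18.8 CPM, and both intervals included no difference. Ucp3, a mitochondrial uncoupling protein of muscle, had 82, 59 and 58 UMIs, and its intervals also included no difference. Acacb and Mlycd thus differed in their ratios, at 1.61-fold lower and 1.06-fold higher in PDL1/ATZ.

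**Figure D3:**
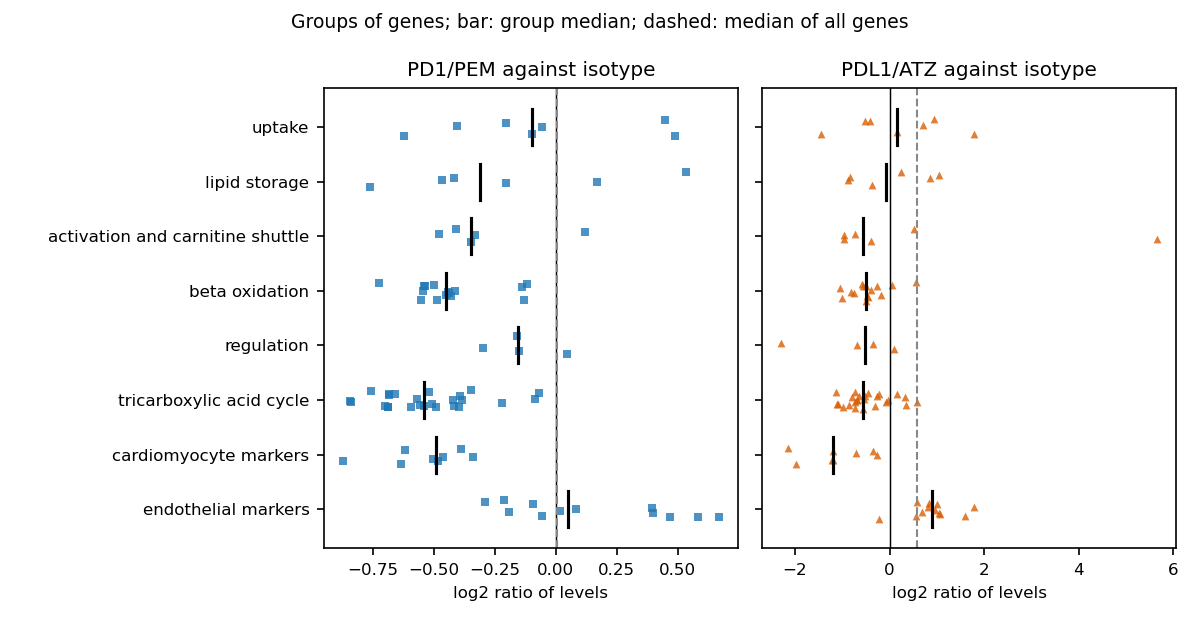
Log2 ratios to isotype by role and by comparison list for PD1/PEM and PDL1/ATZ, with 1 point per gene tested, a bar at the group's median and a dashed line at the median of all genes. The beta oxidation median is -0.45 in PD1/PEM and -0.49 in PDL1/ATZ, beside all-gene medians of 0.01 and 0.58.

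Other fatty acid genes were taken from a list of 71. In PD1/PEM, 63 could be tested, 11 were counted as lower (17.5%, beside 3.65% of all genes) and none as higher, and the list's median was -0.16. Ppargc1a, which encodes PGC-1 alpha, was lowest: it was at 1415 CPM in isotype and 520 in PD1/PEM, 2.72-fold lower (2.65 to 2.79). Bdh1, an enzyme of ketone oxidation, was at 41.2 and 20.2 CPM, Slc16a1, a monocarboxylate transporter, at 87.9 and 46.3, and Plin4, a droplet coat gene, at 89.1 and 49.8. In PDL1/ATZ, 65 could be tested, 21 were counted as higher (32.3%, beside 48.5% of all genes) and 12 as lower (18.5%, beside 5.18%). Ppargc1a was at 51.2 CPM there, 27.7-fold below isotype (25.7 to 29.7). Ppara, the gene of PPAR alpha, was at 154 in isotype and 61.5 in PDL1/ATZ, 2.50-fold lower. Plin4, at 89.1 in isotype and 22.3 in PDL1/ATZ, and Slc16a1, at 87.9 and 24.2, were lower by larger folds than Ppara. On the higher side, Gpam, the first enzyme of glycerolipid synthesis, was at 8.27 in isotype and 40.3 in PDL1/ATZ, and Mgll, monoacylglycerol lipase, at 772 and 1720. Ppargc1a, Plin4, Slc16a1 and Ppara were thus lower in that library, and Gpam and Mgll higher.

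The 25 genes of the tricarboxylic acid cycle and pyruvate dehydrogenase were compared because they work beside beta oxidation. In PD1/PEM all 25 had a log2 ratio below 0, with a median of -0.54. Of these, 10 were counted as lower (40%, beside 3.65% of all genes) and none as higher (beside 5.0%). These genes thus lay below isotype beside those of beta oxidation, whose median was -0.45. In PDL1/ATZ 12 of the 25 were lower (48%, beside 5.18% of all genes) and none higher (beside 48.5%), with a median of -0.57. Cardiomyocyte markers stood with them. In PD1/PEM all 8 were below isotype, with a median of -0.49 and 3 counted as lower (37.5%, beside 3.65% of all genes). In PDL1/ATZ 6 of 8 were lower (75%, beside 5.18%), with a median of -1.19. The 12 endothelial markers had a median of 0.05 in PD1/PEM, with 1 counted as higher (8.33%, beside 5.0% of all genes). In PDL1/ATZ their median was 0.89, beside 0.58 for all genes, and 9 were counted as higher (75%, beside 48.5%). What part these markers' shifts have in the ratios of the fatty acid genes was not tested.

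Cells were next sorted within each library by the endothelial markers they carried, as several uptake genes are known from capillaries. Cells with at least 3 endothelial markers and fewer than 3 of other non-muscle types numbered 1886 in isotype, 812 in PD1/PEM and 5234 in PDL1/ATZ. Cells with fewer than 3 markers of any non-muscle type numbered 1151, 275 and 1189. These are ranges of a marker count and not cell types, and 701, 203 and 1213 of the first kind were at the minimum of 3. Cells that reached 3 markers of 2 or more non-muscle types were in neither kind. They numbered 5375 of 9510 cells in isotype, 4926 of 6388 in PD1/PEM and 4642 of 11599 in PDL1/ATZ. Fabp4 was at 805 CPM in the endothelial-marker cells of isotype and 792 in the other cells, at 1127 and 1162 in PD1/PEM, and at 2782 and 3051 in PDL1/ATZ. Levels of Cd36 were 1048 and 1066, 1077 and 997, and 1227 and 1254. Those of Gpihbp1 were 165 and 150, 145 and 130, and 267 and 274. The endothelial-marker cells were therefore little different from the others in these 3 genes. Wider gaps were seen in low genes, such as Slc25a20 in isotype, at 20.6 and 8.85, and Acads in PDL1/ATZ, at 18.5 and 31.3. Cardiomyocyte markers were also nearly as high in the endothelial-marker cells, at 32385, 23751 and 12822 CPM against 32424, 23733 and 15254.

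Cells were also ranked by marker UMIs. The ranking used the first 6 endothelial markers, and the second 6 summed to 1446 CPM in isotype cells with 0 UMIs and 1880 in those with 10 or more. In PD1/PEM these were 1761 and 2231, and in PDL1/ATZ 2743 and 4145. Fabp4 was at 800 and 827 in isotype, 947 and 1187 in PD1/PEM, and 3026 and 2488 in PDL1/ATZ. Fabp3 was lower in the cells with 10 or more in isotype, at 774 and 647, and in PDL1/ATZ, at 632 and 360. Gpihbp1 was higher in those cells in PD1/PEM, at 110 and 170. In PDL1/ATZ Acadl was at 221 and 115 and Cd36 at 1080 and 1293, while the intervals of Hadha, at 111 and 93.9, overlapped. The cells with 10 or more UMIs were deeper, with median totals of 3474, 3580 and 2719.5 UMIs against 1062, 1084.5 and 815.

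**Figure D4:**
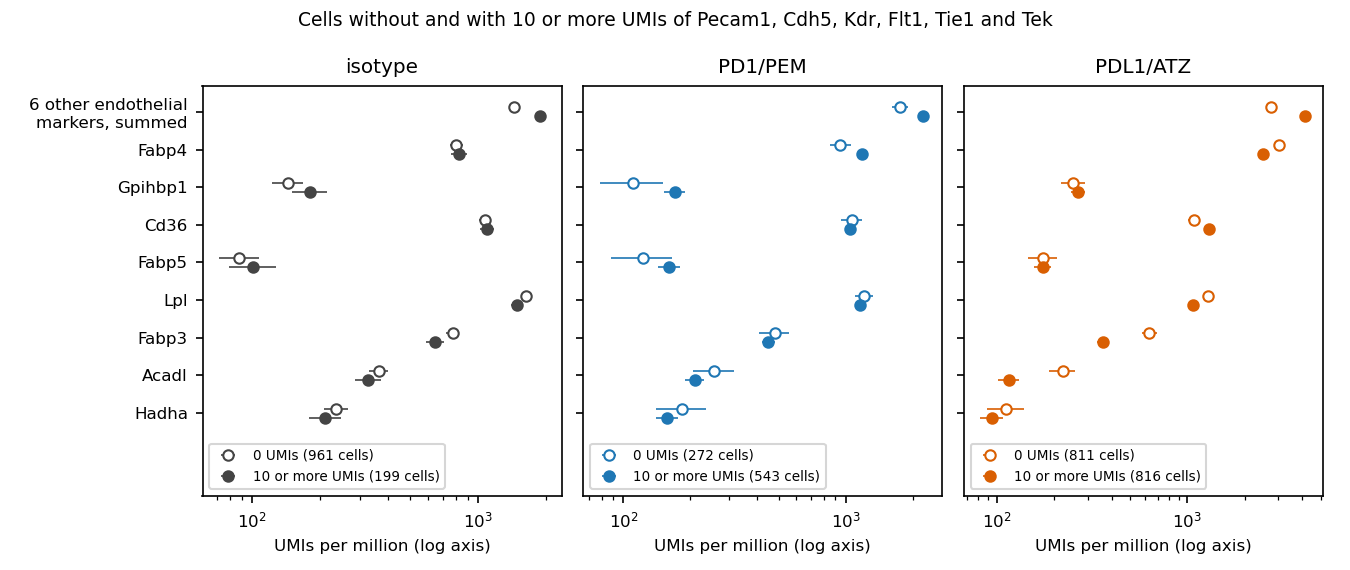
Levels of 8 genes and of 6 summed endothelial markers in cells with 0 UMIs (open) and with 10 or more UMIs (filled) of the 6 ranking markers, in CPM on log axes that differ by panel, with 95% intervals for counting error. Fabp4 is at 800 and 827 in isotype and at 3026 and 2488 in PDL1/ATZ.

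The ratios between libraries were also taken within each kind of cell. Within the endothelial-marker cells Fabp4 was 3.46-fold higher in PDL1/ATZ than in isotype (3.31 to 3.62), and in the other cells 3.85-fold higher (3.57 to 4.15). Hadha was 1.99-fold and 1.85-fold lower in PDL1/ATZ in the same kinds of cells, and Fabp4 in PD1/PEM 1.40-fold and 1.47-fold higher. Spread between cells beyond counting error was taken for genes with enough UMIs. The median extra coefficient of variation of the set was 27.4% in isotype, 32.1% in PD1/PEM and 43.5% in PDL1/ATZ. In this measure it was close to that of the cardiomyocyte markers, at 26.7%, 36.4% and 46.7%. The variance over its counting expectation was not: its medians were 1.03, 1.03 and 1.10 for the set. For the cardiomyocyte markers they were 1.35, 1.51 and 1.38. The endothelial markers had 41.5%, 38.4% and 50.6%, and macrophage markers 111%, 121% and 167%. Single genes of the set reached 91.4% in isotype (Acacb), 151% in PD1/PEM (Pdk4) and 133% in PDL1/ATZ (Acacb). Their variances were 1.06, 1.10 and 1.02 times the counting expectation. These measures did not always go together: Slc27a1 in isotype had 66.3% at a variance of 0.97 times the expectation. The extra coefficient is therefore uncertain for single genes. Levels are given per library and not per cell type.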

How the data were processed

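The deposited matrices hold counts, whole UMIs per gene and cell, 1 matrix per library, per the labels' protocols from 10x 3′ v3.1 capture. Cell Ranger, Seurat and mm10 are named in the submitters' processing notes. Versions, gene annotation and cell filters were not given in the sources used here.

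UMIs were summed over all deposited cells and scaled to CPM (counts per 1000000 UMIs). Levels have exact Poisson and ratios exact conditional binomial 95% intervals, which cover only counting error. A pseudocount of 0.5 was added for log2 ratios. With 1 library per group no test was made. In comparisons with PDL1/ATZ, symbols at 0 in 1 of the 2 sets of libraries were left out. Doublets were not marked. Marker classes needed 3 markers. All 38 genes may be named, and of each other list at most the 4 per direction with the interval bound farthest from no difference. The members and lists were chosen with earlier results of these data known. The steps were tested on simulated counts. Positions are from GENCODE M21 (GRCm38), and sequences from RefSeq. Python 3.11.15, numpy 2.4.6, scipy 1.17.1 and pandas 2.3.3 were used. Alternatives changed the scaling, cell filters, UMI minimum and fold.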

Additional observations from a re-analysis of the deposited data

How the results depend on the processing

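No replicate could be left out, since each group is 1 library. No paired analysis was possible because each group has 1 library. In PD1/PEM the 0 higher and 3 lower genes became 3 and 21 at a log2 ratio of 0.32, beside 12.3% and 10.4% of all genes. At 2-fold 0 were lower, beside 0.454%. The mean over cells gave 1 higher and 4 lower, beside 5.59% and 4.29% of all genes. In PDL1/ATZ the 6 higher and 13 lower genes became 3 and 3 at 2-fold, beside 24.99% and 2.48% of all genes. The counts were 2 and 26 with median-of-ratios or trimmed mean scaling. The lower count was 23 at a log2 ratio of 0.32, beside 8.39% of all genes, and 25 without mitochondrially encoded UMIs, beside 10.4%. Cells with over 20% mitochondrial UMIs gave 4 higher and 3 lower of 37 tested, beside 6.18% and 2.09% of all genes. Of the genes counted as lower in the main setting, some had log2 ratios above 0 there. These were Slc27a1 (0.32), Dgat2 (0.16), Acsl1 (0.0592), Crat (0.14) and Acacb (0.0764), but PDL1/ATZ had only 53 such cells. In all, 14 genes changed sign there. Alternatives chosen after seeing the data gave, in PD1/PEM, 2 higher and 6 lower of 36 tested in endothelial-marker cells. Of all genes there, 6.08% were higher and 5.21% lower. In cells with few markers the counts were 1 and 6 of 29, beside 6.39% and 4.98%. Fewer UMIs remained in these cells. Of 1185 single-gene values under the alternatives, 95 passed the threshold only there and 47 no longer passed it. The lower fold alone gave 33 of the 95, and the 2-fold threshold 16 of the 47. The sign differed from the main value in 93, 5 of them in genes counted as higher or lower and 88 in genes that were not. Of the 93, 18 came from a minimum of 2 markers and 26 from a minimum of 4, which compare cells within a library. The cause of these changes was not tested. Depth limits Ucp3 and Cpt1b most, with 82 and 14 UMIs in isotype.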

Other observations

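Cells with at most 25% mitochondrially encoded UMIs were set beside cells above that share, with levels per 1000000 nuclear UMIs. In isotype, 32 of the 38 genes were lower in the cells at or under 25%, with a median log2 ratio of -0.20, and in PD1/PEM 29 of 38, with a median of -0.15. The medians of all genes with enough UMIs were -0.07 and -0.08. Acacb went the other way, at 0.48 in isotype and 0.69 in PD1/PEM, as did Pdk4 in PD1/PEM at 0.67, while Pdk4 in isotype was at -0.0069. In PDL1/ATZ, 40 cells carried at least 3 macrophage markers and fewer than 3 of every other non-muscle type. Of these, 30 were at the minimum of 3. Plin2 was at 210 CPM in the 40 cells and 41.0 in cells with few markers, on 9 UMIs. Lipe was at 210 and 82.0, also on 9 UMIs.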
